A study of Mus musculus with 9 samples.

Results

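The genes described here encode the enzymes that make superoxide and hydrogen peroxide outside the respiratory chain in the mouse heart. They are 5 subunits of the phagocyte NADPH oxidase (Cybb, Cyba, Ncf1, Ncf4 and Rac2), the oxidase Nox4, xanthine dehydrogenase (Xdh) and the monoamine oxidases (Maoa and Maob). They were chosen by gene symbol, and all 9 were found among the 22036 named genes of a table of 26178 entries. All 9 passed the filter on low counts. The choice used no measured value of a single gene, but it was made with earlier results of these data known.

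The values are read counts per gene from bulk mRNA sequencing of left ventricular tissue of wild-type mice, with 3 biological replicates in each of 3 groups. In the ND AAV-CON group the mice had the diet given as ND, taken to mean normal diet, and an adeno-associated virus (AAV) labelled as control. The HFD AAV-CON group combined that control vector with the diet given as HFD, taken to mean high-fat diet, and the HFD AAV-BCKDK group had a vector named for BCKDK under the HFD label. BCKDK is the kinase that switches off the enzyme complex for breakdown of branched-chain amino acids. All 9 mice had received a vector, per the labels, so no group was without one. For age, sex, strain, the diet's composition and duration, and the vector's dose and promoter, no value is given in the sources used here.

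The phagocyte oxidase is a membrane flavocytochrome that passes electrons from NADPH to oxygen once cytosolic subunits dock on it. Cybb encodes its catalytic chain gp91phox and Cyba the partner chain p22phox, Ncf1 (p47phox) organises the cytosolic complex, Ncf4 (p40phox) is its regulatory subunit, and Rac2 is the GTPase of blood cells that completes the active enzyme. Nox4 also needs p22phox but works without the cytosolic subunits and is known mainly as a source of hydrogen peroxide in fibroblasts, endothelium and cardiomyocytes. Xanthine dehydrogenase ends purine breakdown with the formation of urate and makes oxidants in its oxidase form, and monoamine oxidases sit on the outer mitochondrial membrane and release hydrogen peroxide as they break down catecholamines and serotonin.

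The promoters of 3 of the phagocyte subunit genes are shown first, and they differ in base composition. Any link between promoter sequence and the transcript changes given below was not tested. The RefSeq table of promoters for the mouse build mm10 held 5 of the 9 genes (Cybb, Cyba, Ncf1, Nox4 and Maoa). The sequences below are the 250 bases before the RefSeq start, 5′ to 3′ on the gene's strand, which is minus for all 3. Cybb lies at chrX:9469325-9469574, Cyba at chr8:122432941-122433190 and Ncf1 at chr5:134229626-134229875. The capitals mark a match to the AP-1 motif.
Cybb: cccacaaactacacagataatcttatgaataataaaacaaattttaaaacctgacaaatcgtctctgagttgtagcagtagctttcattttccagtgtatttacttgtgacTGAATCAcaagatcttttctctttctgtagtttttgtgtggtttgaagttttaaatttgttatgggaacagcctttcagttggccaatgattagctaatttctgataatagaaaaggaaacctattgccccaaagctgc
Cyba: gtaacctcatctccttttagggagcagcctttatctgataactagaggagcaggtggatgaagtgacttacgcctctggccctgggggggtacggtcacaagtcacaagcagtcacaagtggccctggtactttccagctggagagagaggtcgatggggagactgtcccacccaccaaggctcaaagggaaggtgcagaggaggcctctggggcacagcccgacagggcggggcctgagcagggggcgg
Ncf1: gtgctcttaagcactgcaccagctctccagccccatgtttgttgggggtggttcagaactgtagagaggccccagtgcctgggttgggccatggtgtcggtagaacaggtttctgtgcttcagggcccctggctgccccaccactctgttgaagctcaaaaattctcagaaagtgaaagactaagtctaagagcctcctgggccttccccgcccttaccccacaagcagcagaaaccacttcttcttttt
The GC content of these windows was 34% for Cybb, 60% for Cyba and 54.4% for Ncf1, against a median of 52.4% over 32851 promoters. The AP-1 motif TGANTCA was searched on both strands of the 300-base windows, which run past the start. It was found once in Cybb, at -139 to -133 from the start, and 7.81% of all promoters held it. A match is a description of letters and not evidence of binding.

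Libraries held 32803233 to 45483044 counts in named genes. The vector's gene was checked first. Bckdk was at 70.3 to 78.6 CPM (counts relative to the library's total count, on the usual CPM scale, with library totals scaled by TMM factors) in ND AAV-CON, at 37.1 to 65.0 in HFD AAV-CON and at 111 to 126 in HFD AAV-BCKDK. It was higher in HFD AAV-BCKDK than in HFD AAV-CON by 1.24 ± 0.17 (log2 ± SE, edgeR, adjusted p = 0.00161). Bckdk also differed by -0.54 ± 0.17 in HFD AAV-CON relative to ND AAV-CON (adjusted p = 0.03). HFD AAV-BCKDK relative to ND AAV-CON gave 0.70 ± 0.17, without overlap, which did not pass (adjusted p = 0.07). All 10 cardiomyocyte markers were detected, with a summed level of 18296 to 40022 CPM. This shows heart muscle RNA but does not test the left ventricular label. HFD AAV-CON replicate 3 stood apart from the other libraries. Entries without a gene name held 1.02% of its counts against 4.75% to 6.01% elsewhere, and its level lay between the other 2 HFD AAV-CON libraries for 64.1% of genes and for 7 of the 9 members. For the other 8 libraries that share of genes was 14.8% to 37.1%. The member count was not particular to it, as HFD AAV-BCKDK replicate 3 also lay between its group's other 2 for 7 of the 9 members (35.8% of genes). Counts of mitochondrially encoded genes made up 26.1%, 39.9% and 33.2% of HFD AAV-CON replicates 1, 2 and 3, and 42.1% to 47.6% of the libraries of the other groups. Results for the 9 members are therefore given with and without HFD AAV-CON replicate 3 where its removal changed a call.

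Of the 9 oxidant producers, 7 were higher in HFD AAV-CON than in ND AAV-CON and none was lower. The 5 phagocyte oxidase subunits, Nox4 and Xdh rose, while Maoa and Maob did not pass the test (edgeR quasi-likelihood test, adjusted p below 0.05). In this comparison 43.3% of the 14160 genes tested were called, 22.7% higher and 20.6% lower. The median log2 difference was 2.04 over the 9 members and -0.0018 over all genes tested. The groups did not overlap for 6 members that were higher and for Maob, which was lower, where 55.3% of all genes had groups that did not overlap (28.2% higher and 27.1% lower). Without HFD AAV-CON replicate 3, 6 members were called, all higher, and Nox4 was the member that dropped out.

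In HFD AAV-BCKDK the 5 phagocyte subunits and Nox4 were lower than in HFD AAV-CON, Maob was higher, and Xdh and Maoa did not pass. Of all genes 38.2% were called, 17.3% higher and 20.9% lower. The median log2 difference of the members was -2.17, beside -0.010 over all genes. The groups did not overlap for 5 members that were lower and for 1 that was higher, against 51.2% of all genes (27.3% lower and 24% higher). Without HFD AAV-CON replicate 3, 5 members were called, the phagocyte subunits. With libraries scaled by total counts alone, Xdh was lower and Maob lost its call, which made 7 lower and none higher. The HFD AAV-CON libraries are common to both comparisons, so a high value in that group enters both with opposite sign.

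**Figure D1:**
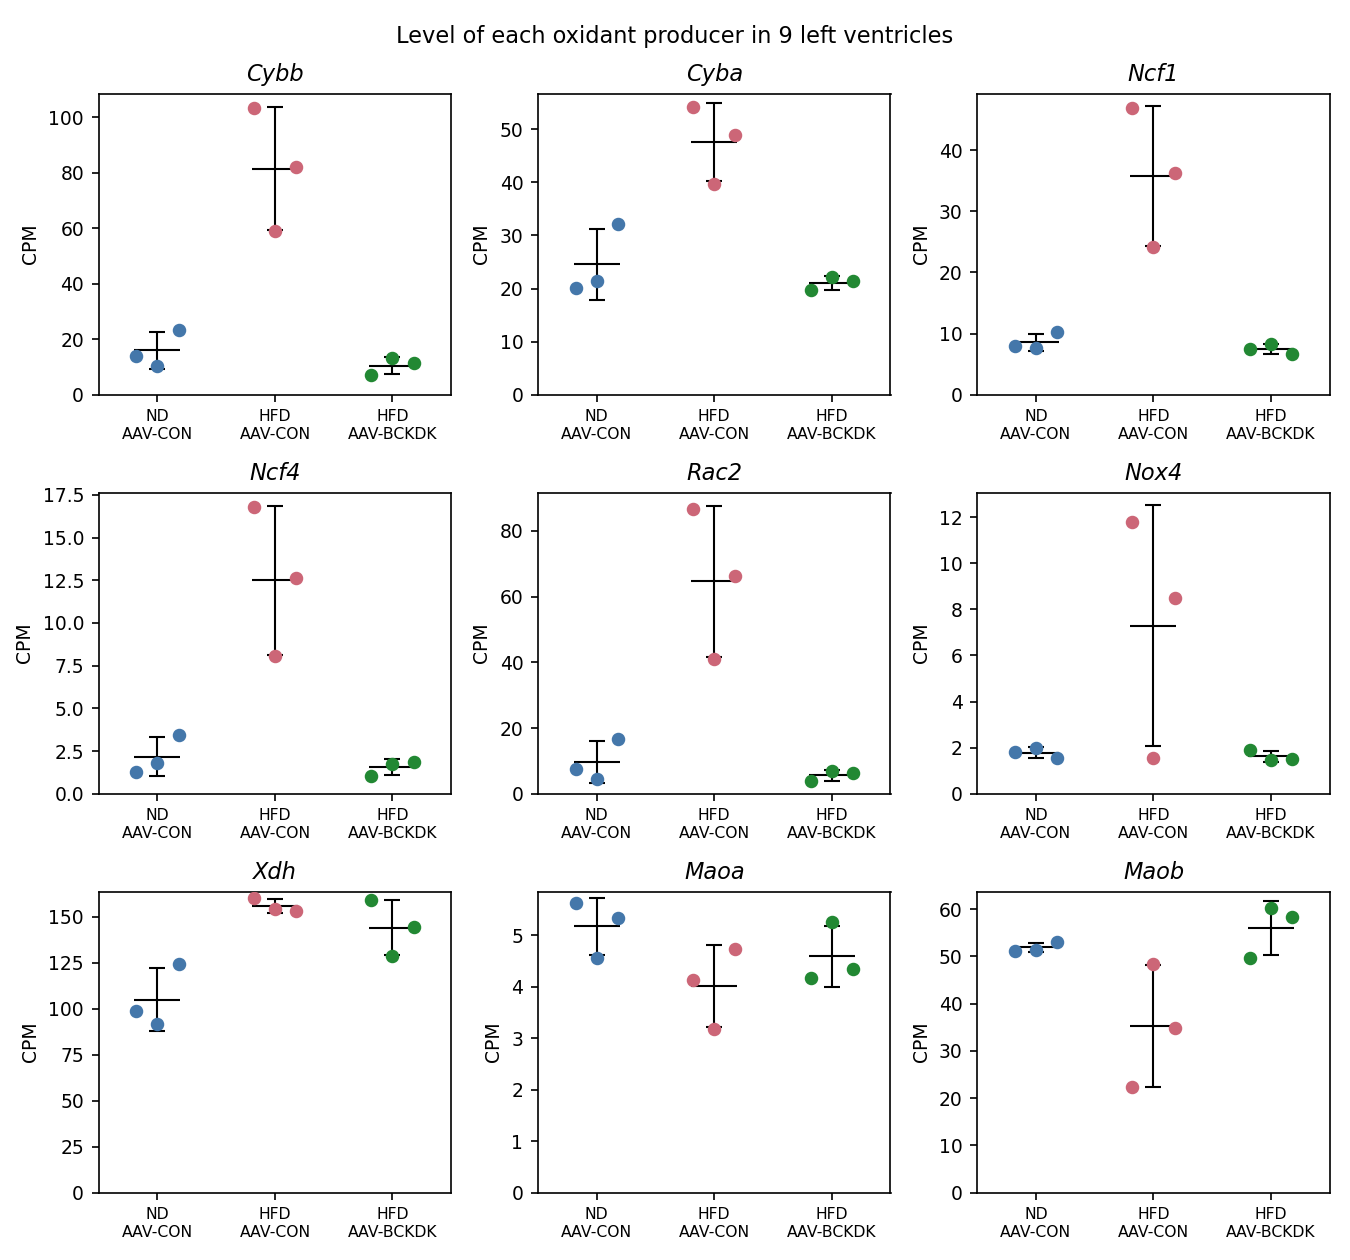
Level of each member in the 9 left ventricles, in CPM with TMM scaling (linear axes from 0). Points are libraries, the horizontal line is the group mean and the whiskers are 1 SD (n = 3). The HFD AAV-CON points of the 5 phagocyte subunits lie above all other points, 1 HFD AAV-CON point of Nox4 lies with the other groups, and Xdh is high in both HFD groups.

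Per length, the order of the members changed between the groups. In ND AAV-CON, Cyba was at 23.7 ± 6.40 CPM per kilobase of exon (mean ± SD, n = 3), Maob at 18.6 ± 0.36 and Xdh at 11.4 ± 1.86, and these 3 did not overlap each other. The other phagocyte subunits followed at 3.10 ± 2.04 for Rac2, 2.75 ± 1.16 for Cybb and 2.35 ± 0.39 for Ncf1, whose ranges overlapped. Maoa (1.24 ± 0.13) and Ncf4 (1.08 ± 0.55) overlapped as well, and Nox4 was lowest at 0.21 ± 0.027. In HFD AAV-CON, Cyba stayed first at 45.8 ± 7.01 and Rac2 stood second at 20.8 ± 7.37, but Rac2, Xdh, Cybb, Maob and Ncf1 each overlapped the next in order, down to Ncf4 (6.19 ± 2.15), which did not overlap Maoa below it. Maob was the fifth there at 12.6 ± 4.64, and Maoa (0.96 ± 0.19) and Nox4 (0.86 ± 0.62) overlapped at the bottom. In HFD AAV-BCKDK, Cyba (20.3 ± 1.26) and Maob (20.1 ± 2.04) overlapped at the top, Xdh was at 15.7 ± 1.65, and Ncf1, Rac2 and Cybb lay together between 1.81 and 2.05.

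The catalytic chain of the phagocyte oxidase rose with the diet and fell with the vector. Cybb (ENSMUSG00000015340, chrX:9435252-9487771) was at 14.0, 10.4 and 23.5 CPM in ND AAV-CON replicates 1 to 3, at 103, 58.9 and 82.2 in HFD AAV-CON, and at 7.17, 13.1 and 11.3 in HFD AAV-BCKDK. Each HFD AAV-CON library lay above each library of the other groups, and ND AAV-CON and HFD AAV-BCKDK overlapped. The log2 difference was 2.35 ± 0.33 (SE; 5.09-fold, adjusted p = 0.00108) in HFD AAV-CON relative to ND AAV-CON and -2.95 ± 0.34 (adjusted p = 0.00124) in HFD AAV-BCKDK relative to HFD AAV-CON. These are bulk samples, in which fewer cells of a type and less RNA per cell cannot be told apart.

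The partner chain moved the same way but less. Cyba (ENSMUSG00000006519, chr8:122424776-122432930) was at 20.1, 21.4 and 32.2 CPM in ND AAV-CON, at 54.1, 39.7 and 49.0 in HFD AAV-CON and at 19.7, 22.3 and 21.4 in HFD AAV-BCKDK. Again the 3 HFD AAV-CON libraries were the highest of the 9. The difference was 0.95 ± 0.18 (1.94-fold, adjusted p = 0.00338) with the diet and -1.17 ± 0.18 (adjusted p = 0.00223) with the vector. The log2 ratio of Cybb to Cyba counts within a library, which no scaling between libraries can change, was -0.67 ± 0.31 (SD, n = 3) in ND AAV-CON. It was 0.75 ± 0.18 in HFD AAV-CON, while HFD AAV-BCKDK had -1.05 ± 0.37. It was above 0 in 3 of 3 HFD AAV-CON libraries and below 0 in the other 6. The ratio was higher by 1.42 in HFD AAV-CON than in ND AAV-CON and lower by 1.79 in HFD AAV-BCKDK than in HFD AAV-CON, each with an exact two-sided permutation p of 0.1, the smallest that 3 against 3 allows. Over the 9 tests of within-library ratios the adjusted value was 0.225 for both.

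Of the cytosolic subunits, the organiser Ncf1 had the smallest standard error. Ncf1 (ENSMUSG00000015950, chr5:134220053-134229625) was at 7.90, 7.64 and 10.2 CPM in ND AAV-CON, at 47.0, 24.1 and 36.3 in HFD AAV-CON and at 7.44, 8.38 and 6.70 in HFD AAV-BCKDK. Its lowest HFD AAV-CON library was far above the highest library of the other groups. The difference was 2.06 ± 0.23 (4.17-fold, adjusted p = 5.44e-04) with the diet and -2.26 ± 0.23 (adjusted p = 0.00114) with the vector. Its exons share 408 bases with Gtf2ird2 on the opposite strand, out of 3663, and whether the counting used strand is not given in the sources used here, so some of its counts could belong to that gene.

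The regulatory subunit Ncf4 (ENSMUSG00000071715, chr15:78244801-78262580) had the lowest level per length of the phagocyte subunits in all 3 groups. It was at 1.28, 1.81 and 3.43 CPM in ND AAV-CON, at 16.8, 8.08 and 12.6 in HFD AAV-CON and at 1.06, 1.77 and 1.88 in HFD AAV-BCKDK, from 31 to 1046 counts per library. All 3 HFD AAV-CON libraries lay above the rest, with a difference of 2.52 ± 0.39 (5.73-fold, adjusted p = 0.00155) for the diet and -2.99 ± 0.41 (adjusted p = 0.0015) for the vector.

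The GTPase Rac2 (ENSMUSG00000033220, chr15:78559167-78572783) had the largest differences of the 9 members in both comparisons. It was at 7.68, 4.48 and 16.7 CPM in ND AAV-CON, at 86.6, 41.0 and 66.3 in HFD AAV-CON and at 3.79, 6.86 and 6.32 in HFD AAV-BCKDK. Its ND AAV-CON libraries spread 3.72-fold, more than its libraries in either HFD group, but none reached the lowest HFD AAV-CON library. The difference was 2.75 ± 0.46 (6.71-fold, adjusted p = 0.00203) with the diet and -3.51 ± 0.48 (11.4-fold lower, adjusted p = 0.00154) with the vector. Without ND AAV-CON replicate 3, the library with the most Rac2 in its group, the diet difference was 3.41 (adjusted p = 0.00126). That library also had the most Cybb, Cyba, Ncf1 and Ncf4 of its group.

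**Figure D2:**
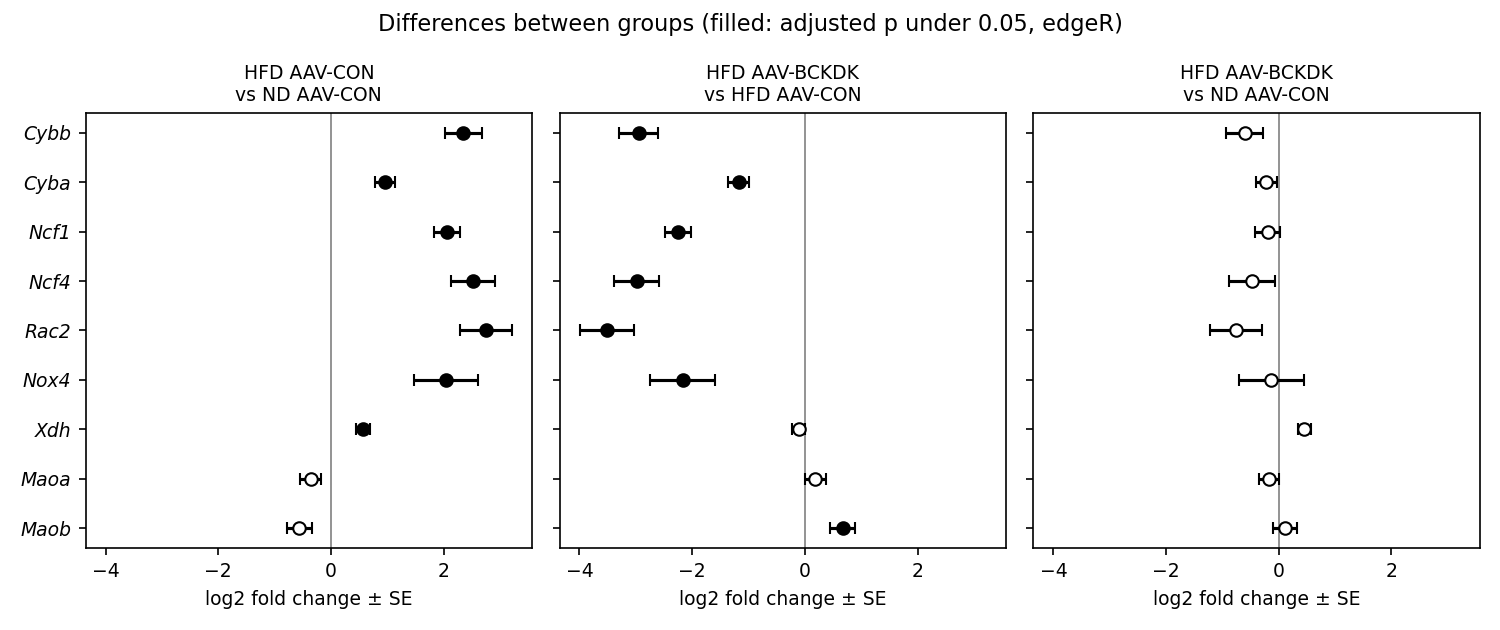
Log2 fold change of each member in the 3 comparisons, with bars of 1 SE from the edgeR fit to all 9 libraries. Filled points have an adjusted p under 0.05. In the first panel 7 points are filled, all to the right of 0. In the second 7 are filled, 6 to the left and Maob to the right, and in the third panel none is filled.

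Markers of macrophages moved with the phagocyte subunits. All 12 macrophage markers were higher in HFD AAV-CON than in ND AAV-CON and all 12 were lower in HFD AAV-BCKDK than in HFD AAV-CON (12 and 11 without HFD AAV-CON replicate 3). Their summed level was 743 to 1030 CPM in ND AAV-CON, 2089 to 3471 in HFD AAV-CON and 558 to 760 in HFD AAV-BCKDK. The defining markers were present in every group, with Adgre1 at mean levels of 22.1, 127 and 17.0 CPM and Cd68 at 11.4, 32.7 and 8.76. Summed counts of the 5 subunits, set against summed counts of the markers, gave a log2 ratio of -3.82 ± 0.22 in ND AAV-CON. The HFD AAV-CON value was -3.54 ± 0.059, while HFD AAV-BCKDK had -3.88 ± 0.10. The ratio differed by 0.29 with the diet (exact two-sided permutation p = 0.2) and by -0.34 with the vector, where the groups did not overlap (exact p = 0.1, adjusted 0.225). The part of cell numbers in the result was not tested.

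Neutrophils also carry this oxidase, and their markers ranged from absent to low. Elane had no count in any library, Camp had 2 counts in all, Mpo 6, Ly6g 8 and Ltf 28, while Retnlg had 112, Cxcr2 199, S100a8 315, S100a9 673 and Csf3r 1746. S100a8 had mean levels of 0.42, 0.91 and 1.45 CPM and S100a9 of 1.06, 2.14 and 2.63 in the ND, HFD control and HFD BCKDK groups, and neither passed a test. The summed level of the 10 neutrophil markers was 2.98 to 4.32 CPM in ND AAV-CON, 12.1 to 14.7 in HFD AAV-CON and 4.10 to 10.9 in HFD AAV-BCKDK, and Csf3r, the receptor for granulocyte colony-stimulating factor, was the 1 marker of 5 tested that rose with the diet and fell with the vector. Lymphocytes express Rac2 too. For their markers, the shares of all genes to read beside the counts were 22.7% higher with the diet and 20.9% lower with the vector. Markers of T and NK cells summed to 2.08 to 40.5 CPM in ND AAV-CON, 101 to 183 in HFD AAV-CON and 2.25 to 12.9 in HFD AAV-BCKDK, with 7 of 9 higher and 8 of 9 lower in the respective comparisons (5 and 7 without HFD AAV-CON replicate 3). Markers of B cells summed to 1.27 to 7.70, 8.62 to 17.1 and 0.742 to 1.5 CPM, with 1 of 6 higher (Cd22) and 4 of 6 lower (2 lower without HFD AAV-CON replicate 1 or replicate 3). Their part in the Rac2 result was not tested.

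**Figure D3:**
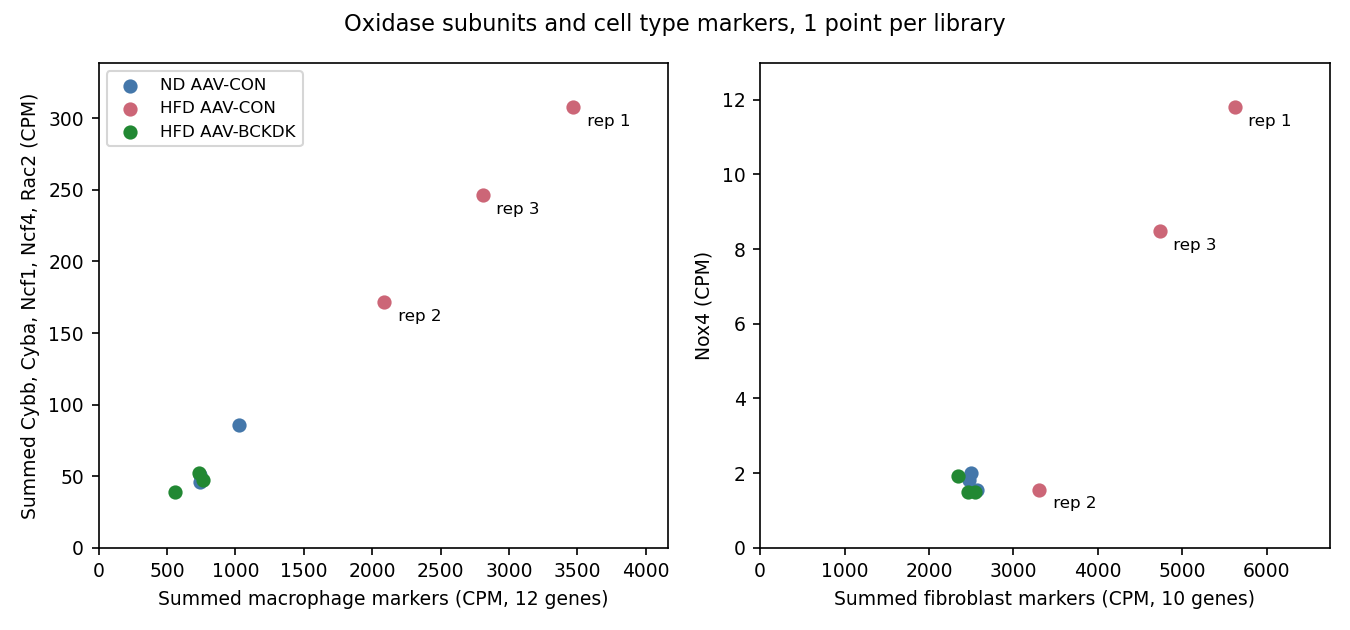
Left, summed level of the 5 phagocyte subunits against the summed level of 12 macrophage markers. Right, Nox4 against the summed level of 10 fibroblast markers. Each point is a library, in CPM on linear axes from 0, and HFD AAV-CON replicates are numbered. On the left the HFD AAV-CON libraries lie at 172 to 308 CPM of subunits and the others at 39.1 to 86.0. On the right HFD AAV-CON replicate 2 has the Nox4 level of the other groups with a marker sum of 3305 CPM.

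The remaining parts of the oxidase were read from a list of 12 partners and paralogs, of which 7 had enough counts to be tested. With the diet 2 rose, 1 fell and 4 did not pass, and with the vector 1 rose, 2 fell and 4 did not pass (none rose and 3 fell with total-count scaling). The share of all genes called was 43.3% with the diet and 38.2% with the vector. Cybc1, which helps the flavocytochrome mature, rose by 1.24 ± 0.15 (adjusted p = 6.51e-04) and fell by 1.03. Poldip2, an interactor of p22phox, went the other way, from 108 to 66.0 CPM with the diet (-0.71 ± 0.15, adjusted p = 0.00518) and 0.63 ± 0.15 with the vector (adjusted p = 0.0111). Rac1, the GTPase found in most cells, was at 209 ± 3.43, 220 ± 7.90 and 214 ± 14.4 CPM, and its diet difference was 0.08. The paralogs were scarce: Nox3 and the activator Noxa1 had no count in any library, Nox1 had 4 counts in all, and Duox1 had 279.

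Kinases, receptors and exchange factors that act on the phagocyte oxidase, most of them as activators and a few as brakes, moved with its subunits. Of 15 tested, 14 rose with the diet and 14 fell with the vector, with medians of 2.28 and -2.52. The exception in both was Rap1a, which did not pass. Of all genes, 22.7% rose with the diet and 20.9% fell with the vector. All 15 were called with total-count scaling, where the median of all genes was itself shifted to 0.40 with the diet and -0.47 with the vector. Fcgr3, an activating receptor for antibody complexes, rose by 1.60 ± 0.20 (adjusted p = 6.93e-04) and fell by 1.86 (adjusted p = 0.00121). Itgb2 and Itgam, the chains of the phagocyte integrin Mac-1, rose by 2.74 ± 0.35 and 2.28 ± 0.29 (both adjusted p = 7.54e-04). Arhgdib, which holds Rac in its inactive form in blood cells, rose by 1.48 ± 0.19 (adjusted p = 7.77e-04) and was 1.47 lower with the vector. Fcgr2b, an inhibitory receptor for antibody complexes, fell by 1.68 with the vector (adjusted p = 0.00124), and Prkcd, a kinase that acts on Ncf1, fell by 1.78 (adjusted p = 0.00126). The list shares Fcgr1 with the macrophage markers and was chosen with results of these libraries known.

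Nox4 (ENSMUSG00000030562, chr7:87246096-87398710) was the member whose replicates differed most. It had 66, 74 and 61 counts in ND AAV-CON. The HFD AAV-CON libraries had 736, 58 and 356, and those with the BCKDK vector 56, 42 and 63. In CPM these were 1.80, 2.0 and 1.54, then 11.8, 1.56 and 8.49, and last 1.91, 1.48 and 1.5. HFD AAV-CON replicates 1 and 3 were high, and replicate 2 was within the range of the ND AAV-CON libraries, so the groups overlapped in both comparisons. The differences were 2.04 ± 0.56 (adjusted p = 0.0174) for the diet and -2.17 ± 0.57 (adjusted p = 0.0179) for the vector. The diet call was lost with limma-voom (adjusted p = 0.104) and without HFD AAV-CON replicate 1 (1.49, adjusted p = 0.0625), HFD AAV-CON replicate 3 (1.92, adjusted p = 0.0536), or replicates 1 or 3 of ND AAV-CON (adjusted p = 0.0538 and 0.0535). The vector call was lost with limma-voom (adjusted p = 0.116), without replicate 1 (-1.60, adjusted p = 0.0597) or replicate 3 (adjusted p = 0.0564) of HFD AAV-CON, and without HFD AAV-BCKDK replicate 2 (adjusted p = 0.0603) or 3 (adjusted p = 0.0573). Without HFD AAV-CON replicate 2 the differences were 2.51 and -2.62.

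The library low in Nox4 also had the smallest rise of fibroblast markers, an order not particular to that list. In HFD AAV-CON replicates 1, 2 and 3, summed macrophage markers were at 3471, 2089 and 2810 CPM. Markers of T and NK cells were at 183, 101 and 156 CPM, and cardiomyocyte markers at 18296, 30583 and 22289. Replicate 2 lay nearest to ND AAV-CON in each of these, but not for neutrophil markers (12.1, 14.7 and 14.0). The summed level of 10 fibroblast markers was 2474 to 2573 CPM in ND AAV-CON. It was 5622, 3305 and 4736 in HFD AAV-CON replicates 1, 2 and 3, and 2348 to 2541 in HFD AAV-BCKDK. Of these fibroblast markers 7 rose and 3 did not pass with the diet, and 8 fell with the vector. Of all genes, 22.7% rose with the diet and 20.9% fell with the vector. Without HFD AAV-CON replicate 3, 5 markers rose with the diet and 4 fell with the vector (5 fell without HFD AAV-CON replicate 1). Pdgfra, a general marker of fibroblasts, rose by 0.26 ± 0.091 (adjusted p = 0.0437), while Postn and Col1a1, which activated fibroblasts make, rose by 3.51 ± 0.51 and 2.28 ± 0.27 (adjusted p = 0.00117 and 6.62e-04). The part of fibroblast number or state in the Nox4 values was not tested.

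Xdh (ENSMUSG00000024066, chr17:73883895-73950196) was the member that followed the diet label and not the vector. It was at 99.0, 91.8 and 124 CPM in ND AAV-CON, at 160.1, 154 and 153 in HFD AAV-CON and at 159, 129 and 145 in HFD AAV-BCKDK. All 6 HFD libraries lay above all 3 ND libraries. The diet difference was 0.57 ± 0.12 (1.48-fold, adjusted p = 0.00609), and that between the HFD groups was -0.11 ± 0.12 (adjusted p = 0.496). HFD AAV-BCKDK against ND AAV-CON gave 0.46 ± 0.12, which did not pass with edgeR (adjusted p = 0.0951) and passed with DESeq2 (0.48, adjusted p = 0.00914). With libraries scaled by total counts alone, Xdh was also lower with the vector (-0.57, adjusted p = 0.0185), where the median of all genes was itself shifted to -0.47.

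Of 10 tested genes of purine breakdown and salvage, 6 rose with the diet, 1 fell and 3 did not pass. For all genes the share called was 43.3% with the diet and 38.2% with the vector. Gda (guanine deaminase, which makes xanthine) rose by 0.88 ± 0.10 (adjusted p = 6.49e-04) and fell by 0.64 with the vector (adjusted p = 0.00256). Pnp (purine nucleoside phosphorylase, which frees hypoxanthine and guanine) rose by 0.95 ± 0.12 (adjusted p = 8.27e-04) and fell by 0.86 (adjusted p = 0.00177). Unlike Xdh, both of these feeding steps passed the test with the vector, where 1 gene of the list rose, 5 fell and 4 did not pass. Adk, which returns adenosine to AMP, was the gene that fell with the diet (-0.86 ± 0.15, adjusted p = 0.00213) and rose with the vector (0.71 ± 0.15, adjusted p = 0.00654). Ampd2, an AMP deaminase, rose by 0.98 ± 0.23 (adjusted p = 0.00922) and Nt5e, which makes adenosine outside the cell, fell by 0.53 with the vector (adjusted p = 0.00422). The other genes that fell with the vector were Ampd2 and Ada. Without HFD AAV-CON replicate 1, without HFD AAV-CON replicate 3, and without ND AAV-CON replicate 1 or 2, the diet calls of this list numbered 4. Uox, the urate oxidase, had 2 counts in all.

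The monoamine oxidases did not rise with the diet. Maob (ENSMUSG00000040147, chrX:16709282-16817366) was at 51.2, 51.4 and 53.0 CPM in ND AAV-CON, at 22.5, 48.4 and 34.9 in HFD AAV-CON and at 49.6, 60.2 and 58.4 in HFD AAV-BCKDK. Each HFD AAV-CON library lay below each library of the other groups, but by very different amounts. The diet difference of -0.56 ± 0.22 did not pass (adjusted p = 0.065), and it passed with upper-quartile factors, DESeq2 and limma-voom (adjusted p = 0.0476, 0.0367 and 0.0393) and without HFD AAV-CON replicate 2 (-0.86, adjusted p = 0.00204). The vector difference of 0.67 ± 0.22 passed (1.59-fold, adjusted p = 0.0385), and 10 of 21 alternatives took that call away, among them total-count scaling (0.27, adjusted p = 0.158), the removal of HFD AAV-CON replicate 3 (0.69, adjusted p = 0.0917) and the removal of any of the other libraries except HFD AAV-CON replicates 1 and 2. The summed level of 10 cardiomyocyte markers moved beside Maob, at 38187 to 40022 CPM in ND AAV-CON. It was 18296, 30583 and 22289 in HFD AAV-CON replicates 1, 2 and 3, and 33317 to 36273 in HFD AAV-BCKDK. Of these markers 8 fell and 1 (Myh7) rose with the diet, and 7 rose with the vector, and without HFD AAV-CON replicate 3, 3 fell with the diet and none rose with the vector. Of all genes, 20.6% fell with the diet and 17.3% rose with the vector. The fibroblast and macrophage sums had the same order of HFD AAV-CON replicates, with replicate 2 nearest to ND AAV-CON. The part of cardiomyocyte content in the Maob values was not tested.

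Maoa (ENSMUSG00000025037, chrX:16619698-16687818), the form with a preference for serotonin and noradrenaline, was at 5.63, 4.56 and 5.33 CPM in ND AAV-CON, at 4.14, 3.18 and 4.74 in HFD AAV-CON and at 4.16, 5.27 and 4.35 in HFD AAV-BCKDK. Its groups overlapped in every comparison. The differences of -0.36 ± 0.18 with the diet (adjusted p = 0.135) and 0.19 ± 0.18 with the vector (adjusted p = 0.444) did not pass, and total-count scaling turned their signs (0.05 and -0.29). The log2 ratio of Maob to Maoa was 3.33 ± 0.16 in ND AAV-CON, and the HFD AAV-CON value was 3.08 ± 0.76 beside 3.61 ± 0.12 for HFD AAV-BCKDK. It differed by -0.25 with the diet and 0.53 with the vector, with overlapping groups (exact two-sided permutation p = 0.6 and 0.4). HFD AAV-BCKDK was higher than ND AAV-CON by 0.28, without overlap (exact p = 0.1, the smallest possible, adjusted 0.225).

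Among 10 other genes of monoamine handling none rose and 3 fell with the diet, and 3 rose and none fell with the vector. Beside this, 43.3% of all genes were called with the diet and 38.2% with the vector. Sult1a1, a sulfotransferase that acts on catecholamines, fell by 0.75 with the diet (adjusted p = 0.0112) and rose by 0.65 ± 0.19 with the vector (adjusted p = 0.024). Aldh2, the mitochondrial dehydrogenase that takes up the aldehydes that monoamine oxidases release, fell by 0.69 (adjusted p = 0.0179) and rose by 0.60 ± 0.19 (adjusted p = 0.0342). Htr2a, a serotonin receptor, fell by 0.89 with the diet (adjusted p = 0.0405) from 1.64 CPM. Without HFD AAV-CON replicate 3 the list had 1 call with the diet and 1 with the vector, and without HFD AAV-CON replicate 2 it had 5 with each. It also had 1 diet call without ND AAV-CON replicate 1, 1 vector call without HFD AAV-BCKDK replicate 1 or 3, and under total-count scaling 1 higher and 2 lower with the diet and none with the vector.

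Other oxidant-producing enzymes included genes that rose and genes that fell. Of 23 tested, 6 rose, 5 fell and 12 did not pass with the diet, and 5 rose, 9 fell and 9 did not pass with the vector. All genes together had 43.3% called with the diet and 38.2% with the vector. With total-count scaling 8 rose and 2 fell with the diet, and 1 rose and 11 fell with the vector. Ptgs2, the inducible cyclooxygenase, went from 0.94 ± 0.40 CPM to 7.80 ± 2.19 with the diet (3.06 ± 0.33, adjusted p = 4.98e-04) and was at 1.15 ± 0.17 with the vector (-2.76 ± 0.33, adjusted p = 0.00126). Alox15, a lipoxygenase, had 69, 12 and 28 counts in HFD AAV-CON and none in the other 6 libraries. Pooled over its 3 libraries, the HFD AAV-CON level was 0.77 CPM. Set against 3 counts over a group at 0, that pooled level was 29.1-fold the floor of ND AAV-CON and 25.6-fold that of HFD AAV-BCKDK. These ratios do not cover the spread between the HFD AAV-CON libraries. Shc1, whose p66 form takes part in mitochondrial peroxide production, rose by 0.46 ± 0.081 (adjusted p = 0.00263) and fell by 0.40 (adjusted p = 0.00663). Ddo, the peroxisomal oxidase of D-aspartate, fell by 0.48 with the diet (adjusted p = 0.0034) and rose by 0.71 ± 0.091 with the vector (adjusted p = 0.00132). Alox5, Alox12 and Aox3 were also among those that fell with the diet, and Aox3, Aox1 and Aoc3 among those that rose with the vector. Nos2, the inducible nitric oxide synthase, fell by 0.84 with the vector (adjusted p = 0.00678). Without HFD AAV-CON replicate 3 the calls numbered 6 with the diet and 9 with the vector. They also numbered 9 with the vector without HFD AAV-CON replicate 1 and 8 without HFD AAV-BCKDK replicate 2.

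Enzymes that supply NADPH, the electron donor of the oxidases, also included both directions. Of 8 tested, 4 rose, 2 fell and 2 did not pass with the diet, and 2 rose, 4 fell and 2 did not pass with the vector. Among all genes 43.3% were called with the diet and 38.2% with the vector. When HFD AAV-CON replicate 3 was left out, 4 rose and 1 fell with the diet, and 1 rose and 4 fell with the vector. The pentose phosphate enzymes G6pdx, Pgd and Tkt rose by 1.03 ± 0.17, 0.73 ± 0.10 and 0.65 ± 0.12 (adjusted p = 0.00214, 0.00103 and 0.0035) and fell by 1.11, 0.58 and 0.71 with the vector, and Taldo1, of the same pathway, did not pass in either comparison (67.8, 68.1 and 64.6 CPM in the ND, HFD control and HFD BCKDK groups). Nadk, the NAD kinase, rose by 0.62 ± 0.12 (adjusted p = 0.00408). The isocitrate dehydrogenases went the other way with the diet. Idh1, the cytosolic form, fell by 0.77 (adjusted p = 0.00117) and was still lower in HFD AAV-BCKDK than in ND AAV-CON (-0.56 ± 0.11, adjusted p = 0.0362), and Idh2, the mitochondrial form, went from 1631 to 911 CPM with the diet (-0.84 ± 0.23, adjusted p = 0.0178) and rose by 0.82 ± 0.23 with the vector (adjusted p = 0.0237). Me1, the malic enzyme, rose by 0.78 ± 0.15 with the vector (adjusted p = 0.00478). The call of Idh1 between HFD AAV-BCKDK and ND AAV-CON was lost without HFD AAV-CON replicate 3 and without any library of the 2 groups compared.

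**Figure D4:**
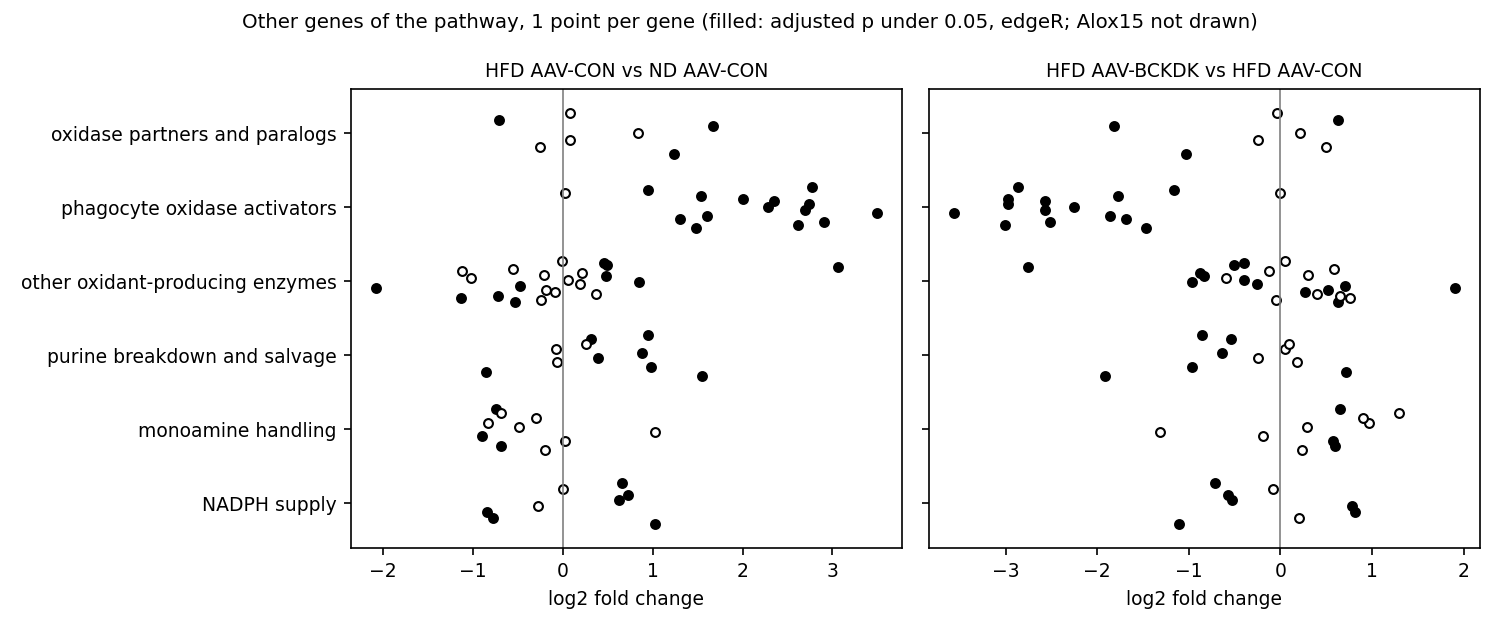
Log2 fold change of each tested gene of 6 lists around the members (edgeR), 1 point per gene, filled where the adjusted p was under 0.05. Left, HFD AAV-CON against ND AAV-CON; right, HFD AAV-BCKDK against HFD AAV-CON. Genes of the activator list lie right of 0 on the left panel and left of 0 on the right panel. Rap1a lies next to 0 and is open in both, and the other lists lie on both sides. Alox15, with no counts in 6 libraries, is not drawn.

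With both diet and vector different, HFD AAV-BCKDK against ND AAV-CON gave no call among the 9 members with edgeR, where 2.45% of all genes were called (1.18% higher and 1.27% lower). Xdh was the 1 member with an unadjusted p under 0.05, DESeq2 called that 1 gene and limma-voom called none. The members' median difference was -0.20, beside -0.027 for all genes. The 5 phagocyte subunits had differences of -0.76 ± 0.46 (Rac2), -0.60 ± 0.33 (Cybb), -0.47 ± 0.41 (Ncf4), -0.22 ± 0.18 (Cyba) and -0.20 ± 0.23 (Ncf1), with adjusted p of 0.398 to 0.731. Nox4 differed by -0.13 ± 0.58, Maoa by -0.17 ± 0.18 and Maob by 0.11 ± 0.22. The groups overlapped for all members but Xdh, where 27.7% of all genes had groups that did not overlap (12.6% higher and 15.1% lower). These values do not show that the groups are alike. Without ND AAV-CON replicate 3 the differences of Cyba and Ncf4 were 0.02 and 0.03.

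For each member the 3 genes with the most similar pattern were sought among 11396 genes, by the root mean square difference of log2 CPM centred on each gene's mean over the 9 libraries. Cybb was nearest to Ly86 (0.11), Pik3r5 (0.11) and Selplg (0.13), and Cyba to Xaf1, Syk and Npc2 (0.11 to 0.12). Ncf1 was nearest to Tnfrsf1b (0.13), C1qb and Hcls1, Ncf4 to Dock2 (0.17), C4b and Cyp4f18, and Rac2 to Cd74 (0.15), Cd52 and Ly9. Of these, C1qb is among the macrophage markers, and Syk and Dock2 are among the oxidase activators. By this distance, which is not scaled to a member's own spread, Nox4 had the least close neighbours. They were Itgbl1 (0.26), Frzb (0.33) and Ism1 (0.34), each with high values in HFD AAV-CON replicates 1 and 3. Itgbl1, for example, was at 85.1, 20.9 and 67.5 CPM in HFD AAV-CON. Xdh was nearest to Flt4 (0.093), Papola and Atf4, which were higher in both HFD groups. Maoa was nearest to Zfp119a (0.085), Tarbp1 and Scaper, and Maob to Kcnj11 (0.076), Myadml2 and Gpsm1. A member's own root mean square about its mean was 1.07 for Nox4, 0.42 for Maob, 0.28 for Xdh and 0.23 for Maoa. Small distances of Xdh and Maoa therefore go with little spread of these genes themselves. Kcnj11, a subunit of the potassium channel that senses ATP in heart muscle, was at 30.8, 60.0 and 40.3 CPM in HFD AAV-CON and at 61.1 to 76.0 in the other groups.

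**Figure D5:**
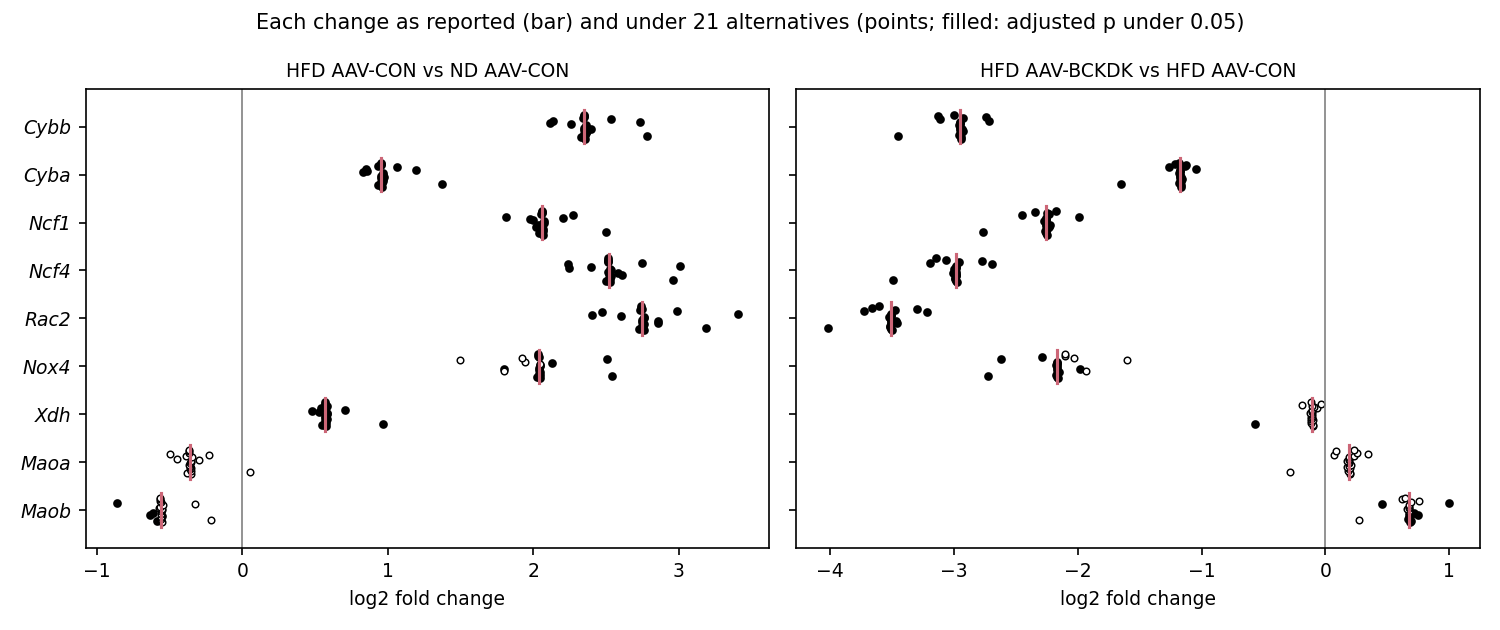
Log2 fold change of each member as reported (vertical bar) and under 21 alternatives (points, filled where the adjusted p was under 0.05). The points of Cybb, Cyba, Ncf1, Ncf4 and Rac2 are filled throughout in both panels, as are those of Xdh on the left, while Nox4 and Maob have open points in both panels.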

How the data were processed

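The authors deposited raw read counts per gene, 1 column per library, with no normalization, per the values of the file. The submitters' processing notes name HISAT2 (2.0.5) and the mm10 build, and no counting tool or strand setting is given in the sources used here. Per the labels' protocols, the tissue went into Trizol and the libraries were prepared with the VAHTS mRNA-seq v2 kit. Entries without a gene name (4142 of 26178, with 1.02% to 6.01% of a library's counts) entered neither the library sizes nor the fits.

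Counts were fitted in R 4.3.3 with edgeR 4.0.16 (filterByExpr by group, TMM factors, quasi-likelihood test, 1 coefficient per group over all 9 libraries), with Benjamini-Hochberg adjustment over 14160 genes and a threshold of 0.05. The common biological coefficient of variation was 18.6%. Every adjusted p of a gene is from this test unless another tool is named. Differences are log2 fold changes, with standard errors taken from the F statistic. CPM was computed from the deposited counts with TMM-scaled library sizes, and levels per length used exon lengths of the GENCODE annotation of mm10. With 0 counts, a floor of 3 counts corresponds to 0.048 to 0.11 CPM in a library and covers counting error only. Ratios within a library were compared with exact permutation tests. The script for the fit was tested on simulated data.

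The members, the lists around them and the marker lists (macrophages, neutrophils, T and NK cells, B cells, dendritic and mast cells, fibroblasts, endothelium, pericytes and smooth muscle, cardiomyocytes, adipocytes and red blood cells) were chosen with earlier results of these data known. The text names all members, up to 4 genes of each list with the smallest p in a comparison, any gene of a count of 5 or fewer, and the 3 genes most similar to each member. Genes that define marker lists, the scarce paralogs and Uox were named after their values were seen. Alternatives were other scaling, other filters, DESeq2 1.42.0, limma-voom (limma 3.58.1), a robust fit, the replicate number as a block, the 2 compared groups alone, leaving out mitochondrial genes, keeping unnamed entries, and leaving out each library. Counts of list genes under left-out libraries, and of marker genes without HFD AAV-CON replicate 1 or 3 and under other tools and scaling, were added after seeing the data. Nnt, with several rows in the table, and Trac and Ighm are not used here. Of the planned promoter motifs, that of PU.1 and its composite with IRF are not reported here. Some genes of the lists are counted in them but not reported singly.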

Additional observations from a re-analysis of the deposited data

How the results depend on the processing

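Of 567 member differences under 21 alternatives, 536 kept their direction and their side of the threshold, 20 lost a call, 7 gained one and 4 turned sign. The 5 phagocyte subunits kept their calls in both main comparisons under all 21, as did Xdh with the diet. The sign turned for Maoa under total-count scaling, to 0.0543 with the diet and -0.287 with the vector, and for Cyba (0.0241) and Ncf4 (0.0278) in HFD AAV-BCKDK against ND AAV-CON without ND AAV-CON replicate 3, where leaving out libraries gave ranges of -0.3446 to 0.0241 and -0.735 to 0.0278. Total-count scaling moved the median of all genes to 0.40 with the diet and -0.47 with the vector, and split the calls 5986 higher to 934 lower and 398 higher to 6867 lower, where the reported fit gave 3215 to 2919 and 2444 to 2966. The number of genes called ranged from 4050 to 7325 with the diet (6134 reported), from 2847 to 6978 with the vector (5410 reported) and from 43 to 744 in HFD AAV-BCKDK against ND AAV-CON (347 reported) when each library was left out. The lowest counts of the first 2 comparisons came without HFD AAV-CON replicate 3, and that of the third came without ND AAV-CON replicate 1. In the third comparison 136 genes were called with total-count scaling, 879 with DESeq2 and 873 with the 2 groups alone, and DESeq2 called 1 member. The cause of these shifts was not tested. The replicate numbers showed no clear pairing of the samples, though with 3 libraries a group this check could not exclude one. Deviations of same-numbered libraries correlated between -0.22 and 0.19, and not every library correlated best with its own number. With the replicate block 5614, 4922 and 107 genes were called, Maob passed with the diet (-0.62, adjusted p = 0.0342), and no other member changed its call. For the within-library ratios, leaving out a library turned the sign of Maob to Maoa with the diet (0.0715 without HFD AAV-CON replicate 1, with -0.6724 as the lowest value) and of subunits to macrophage markers in HFD AAV-BCKDK against ND AAV-CON (0.0645 without ND AAV-CON replicate 3 and 0.0034 without HFD AAV-BCKDK replicate 3, with -0.157 as the lowest value). With 3 libraries a group, the exact permutation test of a ratio difference could not give a p below 0.1. Depth limits Ncf4 and Nox4 most among the members, with 31 and 42 counts in their lowest libraries.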

Other observations

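Marker lists of other cell types in the ventricle also differed between the groups (edgeR, adjusted p below 0.05). Their counts stand beside 43.3% of all genes called with the diet and 38.2% with the vector. Endothelial markers were lower with the diet for 5 of 8 and higher with the vector for 7 of 8, with summed levels of 850 to 952 CPM in ND AAV-CON, 597 to 810 in HFD AAV-CON and 922 to 1047 in HFD AAV-BCKDK. Of pericyte and smooth muscle markers 4 of 8 were lower with the diet and 3 of 8 were higher with the vector. Red blood cell markers were lower with the diet for 5 of 5 tested and higher with the vector for 5 of 5, with summed levels of 1479 to 1657, 460.2 to 902 and 971 to 1567 CPM. Of the adipocyte list only Fabp4 and Cidea had enough counts to be tested. Fabp4 was lower with the diet and both were higher with the vector. Lep had no count, and Adipoq, Plin1 and Cidec had 68, 50 and 70 counts over the 9 libraries. With those markers nearly absent, the values of this list do not show a change of adipocytes. Dendritic and mast cell markers were higher with the diet for 4 of 8 and lower with the vector for 4 of 8 (3 without HFD AAV-CON replicate 3). When HFD AAV-CON replicate 3 was left out, the endothelial counts were 3 lower and 4 higher, 1 red blood cell marker and 1 adipocyte marker were higher with the vector, and no pericyte or smooth muscle marker was. With total-count scaling, 2 endothelial markers were lower and 1 was higher with the diet, and 1 was higher with the vector. Of pericyte and smooth muscle markers, 1 was then higher and 2 lower with the diet, and 1 higher and 3 lower with the vector, and 2 red blood cell markers and 1 adipocyte marker were higher with the vector.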
